A study of Rattus norvegicus with 22 samples.

Results

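The genes of the circadian clock were followed in rat lung after pulmonary embolism (PE) induced with microspheres. Probesets were taken by gene symbol for Per1, Per2, Per3, Bmal1 (also named Arntl), Clock, Npas2, Nr1d1, Nr1d2, Dbp and Tef, which gave 19 probesets of 10 genes among the 31042 probesets and 14217 named genes of the array. Male Sprague–Dawley rats of about 350 g were injected through a jugular vein and right lung was taken 2 h or 18 h later, after lavage with 8 ml of saline. Vehicle rats received 0.15 ml of 0.01% Tween-20 per 100 g of body weight. Mild PE rats (PE1.3) received 0.1 ml per 100 g of a 10% suspension of 25 micron polystyrene microspheres in the same Tween-20, or 1300000 spheres per 100 g, and Severe PE rats (PE2.0) received 0.15 ml per 100 g, or 2000000 spheres. Each time had 3 Vehicle, 4 Mild PE and 4 Severe PE rats, with 1 array per rat. Every group was injected, and the spheres block vessels without a clot. The clock time of injection and of harvest is not given in the sources used here, so the hours since injection and the time of day at harvest cannot be told apart.

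The mammalian clock is a transcriptional feedback loop that runs in nearly every cell, lung cells included. Bmal1 pairs with Clock or its relative Npas2 and activates genes through E-boxes, among them the Per genes, whose proteins return to the nucleus with the Cry proteins and repress that activation. Nr1d1 and Nr1d2 encode Rev-erb alpha and Rev-erb beta, nuclear receptors that are themselves E-box targets and repress Bmal1 through ROR elements. Dbp and Tef encode PAR bZIP factors that carry the rhythm to output genes through D-boxes. Per1 and Per2 also respond acutely to glucocorticoids and to other signals, apart from the loop.

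The promoters of 4 of the members held letters of such elements. Windows from 250 bases before to 50 bases after each annotated start were taken from RefSeq (build GRCr8), and all 10 members matched, with 12 windows. Both strands were searched for the E-box CACGTG, the E′-box CACGTT, the D-box TTANGTAA and the ROR element TAGGTCA, and the matches in these genes did not overlap each other. The E-box was found in 6.42% of 33469 windows of the genome, the E′-box in 4.83%, the D-box in 2.24% and the ROR element in 2.63%. The other 6 had no match in these windows. The 5 windows with a match are given 5′ to 3′ in the direction of the gene, with the matched letters in capitals, because they show which element each gene of the loop carries near its start:
Per2, chr9:99496944-99497243, minus strand: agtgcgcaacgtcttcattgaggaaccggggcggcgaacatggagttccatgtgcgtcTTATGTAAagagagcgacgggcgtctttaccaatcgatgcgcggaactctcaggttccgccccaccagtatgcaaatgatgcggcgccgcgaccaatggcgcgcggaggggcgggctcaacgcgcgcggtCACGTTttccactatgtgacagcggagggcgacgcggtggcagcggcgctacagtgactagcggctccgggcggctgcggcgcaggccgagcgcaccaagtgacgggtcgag
Bmal1, chr1:176766078-176766377, plus strand: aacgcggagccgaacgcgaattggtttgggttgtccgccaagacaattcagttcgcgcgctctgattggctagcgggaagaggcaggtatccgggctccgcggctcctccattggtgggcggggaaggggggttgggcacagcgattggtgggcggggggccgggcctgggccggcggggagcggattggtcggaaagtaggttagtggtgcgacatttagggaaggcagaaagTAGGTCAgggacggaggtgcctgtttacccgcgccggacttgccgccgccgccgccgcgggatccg
Nr1d1, chr10:84229405-84229704, minus strand: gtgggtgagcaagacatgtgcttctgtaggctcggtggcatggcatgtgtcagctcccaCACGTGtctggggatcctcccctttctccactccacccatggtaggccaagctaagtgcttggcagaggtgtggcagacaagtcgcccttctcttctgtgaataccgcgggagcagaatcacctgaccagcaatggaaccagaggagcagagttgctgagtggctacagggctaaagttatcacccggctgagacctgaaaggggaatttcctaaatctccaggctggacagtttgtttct
Nr1d1, chr10:84231763-84232062, minus strand: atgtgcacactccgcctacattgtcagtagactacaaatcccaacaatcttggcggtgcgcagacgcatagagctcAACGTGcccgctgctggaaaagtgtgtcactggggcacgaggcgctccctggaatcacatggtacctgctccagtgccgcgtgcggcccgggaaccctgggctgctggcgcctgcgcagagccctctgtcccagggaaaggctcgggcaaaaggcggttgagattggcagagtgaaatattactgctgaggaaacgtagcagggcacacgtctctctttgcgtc
Tef, chr7:115206577-115206876, plus strand: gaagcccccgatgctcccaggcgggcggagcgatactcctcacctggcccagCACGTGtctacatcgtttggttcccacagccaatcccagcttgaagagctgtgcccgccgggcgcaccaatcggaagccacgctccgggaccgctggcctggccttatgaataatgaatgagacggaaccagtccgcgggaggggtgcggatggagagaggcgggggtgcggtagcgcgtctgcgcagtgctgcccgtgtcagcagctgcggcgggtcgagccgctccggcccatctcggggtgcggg
In Per2 the D-box began 192 bases and the E′-box 62 bases before the start. The ROR element of Bmal1 began 16 bases before its start. A start of Nr1d1 had an E-box 191 bases upstream and the other an E′-box, read on the opposite strand, 174 bases upstream. Tef had an E-box 198 bases upstream. A match is a description of the letters and not evidence that a factor was bound.

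Levels are given as log2 of the array signal, with signals under 16 set to 16 (a log2 of 4, the lowest possible value) and the arrays quantile normalized, so that a difference of 1 is a 2-fold change. Levels of different genes cannot be compared on this scale. A gene with several probesets is given by the brightest, and the others are stated where they differ. To be called, a probeset had to differ at least 1.5-fold between the means and to have a limma p, adjusted by the method of Benjamini and Hochberg, under 0.05. For the terms of the 2-way model the 1.5-fold applied to the range of the 6 group means, so a time effect could be called with a smaller time difference. Markers of lung tissue were bright in all groups: the summed signal of Sftpc, Sftpb and Sftpa1 of alveolar type II cells lay between 72100 and 81400 on every array. Markers of alveolar type I cells (Ager, Aqp5 and Hopx) were less even. They summed to 41800 to 48100 at 2 h and to 40400 to 48400 in 18-h Vehicle. In 18-h Mild PE they summed to 32700 to 40400 and in 18-h Severe PE to 31700 to 36100, with none of the 3 called against Vehicle. Their part in the clock differences was not tested. On 4 arrays, those of rat 3 of 2-h Vehicle, rat 1 of 2-h Severe PE, rat 1 of 18-h Vehicle and rat 4 of 18-h Mild PE, the 3′ over 5′ difference of Gapdh was 0.346 to 0.638, against 0.176 to 0.322 on the other 18. Rats 4 of both PE groups at 2 h stood apart from their group-mates in several clock genes. Calls that turn without these rats are given both ways, as are some, but not all, of the differences that change direction.

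In Vehicle rats the Rev-erb genes had the largest differences between harvests, with lower levels at 18 h than at 2 h. Nr1d1 stood at 10.17, 10.18 and 10.5 in the 2-h Vehicle rats and at 8.27, 7.76 and 8.6 in the 18-h Vehicle rats. Nr1d2 stood at 9.22, 9.71 and 10.22 at 2 h and at 7.75, 7.29 and 8.34 at 18 h. Every 18-h Vehicle rat lay below every 2-h Vehicle rat in both genes. The log2 difference of means was −2.07 (SE 0.25, 4.21-fold, limma adjusted p = 0.162) for Nr1d1 and −1.92 (SE 0.38, 3.79-fold, adjusted p = 0.202) for Nr1d2. The other probesets of Nr1d2 had differences of −1.54 and −1.16 and did not overlap between the times either. In whole lung, fewer cells that express a gene and less RNA of it per cell cannot be told apart.

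No clock probeset was called between the Vehicle harvests. Limma called 0 of the 19, with 5 at an unadjusted p under 0.05, and the methods' t-test also called 0, where 0.0161% of all probesets were called. When the same contrast was fitted on all 22 arrays, the brightest Nr1d2 probeset was the 1 clock probeset called (adjusted p = 0.0254), against 2.68% of all probesets. The median difference of the 19 was −0.076, beside 0.002 over all probesets. In 5 of the 19 the groups did not overlap and were lower at 18 h, against 9.93% of all probesets. These were Nr1d1, the 3 of Nr1d2 and 1 of Clock (log2 difference −0.48, SE 0.25). In 2 of the 19 they did not overlap and were higher at 18 h, against 12.4%. These were Per2 (difference 0.38, SE 0.14, adjusted p = 0.307) and Bmal1 (difference 0.26, SE 0.11, adjusted p = 0.354). Summed neutrophil marker signal (S100a8, S100a9, Csf3r, Cxcr2 and Mmp8) was 5150 to 9270 at 2 h and 13200 to 25400 at 18 h, with none of the 5 called. Lymphocyte marker signal was 2330 to 4410 and 5050 to 6070. Their part in the time differences was not tested.

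The other members differed less between the Vehicle harvests. Bmal1, the partner of Clock, stood at 8.95, 9.03 and 8.71 at 2 h and at 9.04, 9.25 and 9.19 at 18 h. Per2 stood at 7.97, 8.16 and 7.77 at 2 h and at 8.52, 8.35 and 8.2 at 18 h. Both were a little higher in all 18-h rats. Per1 (difference −0.25, SE 0.32), Per3 (−0.11, SE 0.37), Npas2 (−0.03, SE 0.23), Dbp (0.04, SE 0.21) and Tef (−0.08, SE 0.21) had overlapping values. The brightest Clock probeset differed by −0.35 (SE 0.2), and its highest value, 10.1, came from 2-h Vehicle rat 3, an array of low 5′ signal.

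**Figure D1:**
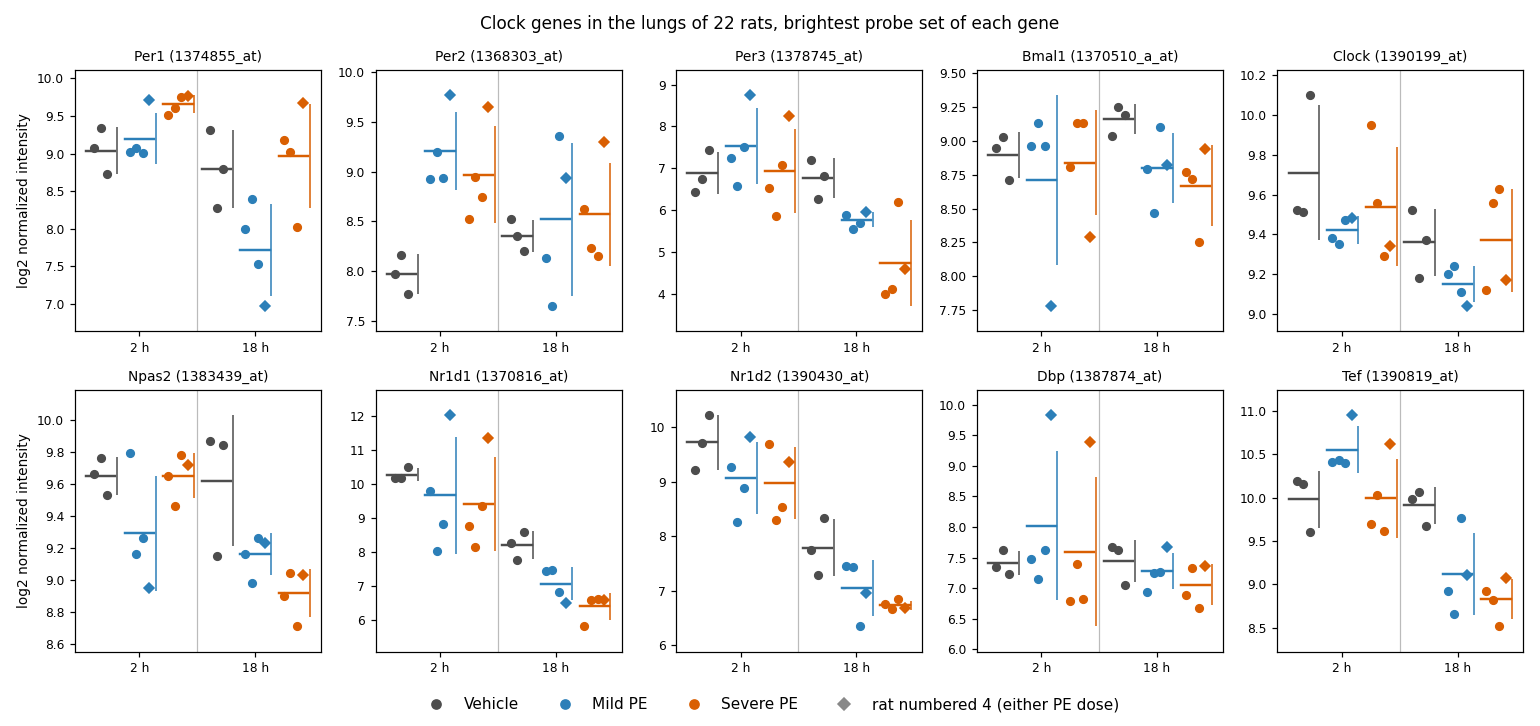
Level of each clock gene in every rat (log2 signal, brightest probeset), with 1 panel per gene, the 2-h and 18-h groups along the horizontal axis, a point for each rat (diamonds for PE rats numbered 4), a horizontal bar at the group mean and a vertical bar of 1 SD. Nr1d1 and Nr1d2 are lower in all 3 18-h Vehicle rats than in all 3 2-h Vehicle rats, and rat 4 of each 2-h PE group is the highest of its group for Nr1d1, Dbp and Per3.

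In Mild PE rats Per1, Per3, Nr1d2 and Tef were lower at 18 h than at 2 h. Between the Mild PE harvests 4 of the 19 probesets fell and none rose, where 2.96% of all probesets fell and 2.48% rose. Per1, a repressor of the loop, stood at 9.02, 9.08, 9.01 and 9.72 at 2 h and at 7.99, 8.39, 7.53 and 6.97 at 18 h. It was lower in every 18-h rat and fell by 1.49 on the log2 scale (SE 0.33, limma adjusted p = 0.0348). Tef, a D-box activator, stood at 10.41, 10.43, 10.4 and 10.95 at 2 h and at 8.93, 8.66, 9.77 and 9.11 at 18 h. It fell by 1.43 (SE 0.26, adjusted p = 0.0189) and the groups did not overlap. Per3, the third Period gene, stood at 7.26, 6.59, 7.52 and 8.75 at 2 h and at 5.89, 5.56, 5.71 and 5.95 at 18 h. It fell by 1.75 (SE 0.43, adjusted p = 0.0479), again without overlap. Nr1d2 stood at 9.26, 8.26, 8.89 and 9.82 at 2 h and at 7.46, 7.44, 6.35 and 6.95 at 18 h, and it fell by 2.01 (SE 0.39, adjusted p = 0.0242). The other Nr1d2 probesets were not called, with differences of −1.28 (SE 0.4, adjusted p = 0.095) and −1.44 (SE 0.36, adjusted p = 0.0508).

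Nr1d1 differed more than these between the Mild PE harvests but varied widely at 2 h. It stood at 9.81, 8.02, 8.83 and 12.03 at 2 h and at 7.45, 7.48, 6.83 and 6.51 at 18 h, which gave a difference of −2.6 (SE 0.84, adjusted p = 0.104) without overlap. The fit on all 22 arrays called it (adjusted p = 0.0276) and the other Nr1d2 probesets (adjusted p = 0.0467 and 0.00702). That fit did not call Per3 (adjusted p = 0.0544). Clock passed the p threshold (adjusted p = 0.0291) with a difference of −0.27, under the required 1.5-fold. The median difference of the 19 probesets was −0.74, beside 0 over all probesets, and in 8 of the 19 every 18-h rat was below every 2-h rat, against 9.24% of all probesets. Without rat 4 of the 2-h group 2 calls remained, Per3 (−1.34, adjusted p = 0.0346) and Tef (−1.29, adjusted p = 0.0474). The count was 0 without 2-h rat 3, 1 without 2-h rat 1 and 2 without 18-h rat 3 or 18-h rat 4. Over the 8 fits that left out 1 rat, Per1 was called in 2 (adjusted p up to 0.0826) and Per3 in 2 (up to 0.114). The brightest Nr1d2 probeset was called in 4 (up to 0.0638) and Tef in 6 (up to 0.0507). In the same comparison 2 of 5 neutrophil markers rose, with a summed signal of 6510 to 20400 at 2 h and 14300 to 35400 at 18 h, and 1 of 3 endothelial markers (Pecam1, Tek, Vwf) fell, with 21600 to 22200 and 14400 to 18700. Their part in the result was not tested.

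Between the Severe PE harvests 6 of the 19 probesets fell and none rose, where 2.99% of all probesets fell and 3.31% rose. Nr1d1 stood at 8.78, 8.16, 9.36 and 11.36 at 2 h and at 5.82, 6.6, 6.61 and 6.58 at 18 h. Every 18-h rat lay below every 2-h rat, and the gene fell by 3.01 on the log2 scale (SE 0.67, 8.08-fold, limma adjusted p = 0.0404). Nr1d2 stood at 9.69, 8.29, 8.54 and 9.36 at 2 h and at 6.75, 6.66, 6.84 and 6.68 at 18 h. The 18-h values were tightly grouped and the fall was 2.23 (SE 0.31, adjusted p = 0.0103). The other Nr1d2 probesets fell by 2.38 (SE 0.35, adjusted p = 0.0121) and 1.08 (SE 0.21, adjusted p = 0.0264), so the 3 probesets gave the same direction. Npas2, the alternative partner of Bmal1, stood at 9.65, 9.46, 9.78 and 9.72 at 2 h and at 8.9, 9.04, 8.71 and 9.03 at 18 h. It fell by 0.73 (SE 0.1, adjusted p = 0.00979) without overlap. Tef stood at 9.7, 10.03, 9.62 and 10.62 at 2 h and at 8.92, 8.82, 8.52 and 9.07 at 18 h. It fell by 1.16 (SE 0.24, adjusted p = 0.0331), also without overlap.

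Per3 was low in the 18-h Severe PE rats but uneven. It stood at 6.53, 5.87, 7.09 and 8.24 at 2 h and at 4, 4.13, 6.21 and 4.61 at 18 h, a difference of −2.2 (SE 0.67, adjusted p = 0.0962). The value of 4 is the floor, and the groups overlapped through 18-h rat 3. The median difference of the 19 probesets was −0.592, beside 0 over all probesets, and in 6 of the 19 every 18-h rat was below every 2-h rat, against 7.73%. Without rat 4 of the 2-h group the dimmest Nr1d2 probeset no longer passed (adjusted p = 0.0688), whereas Nr1d1 (−2.36, adjusted p = 0.0256) and Tef (−0.95, adjusted p = 0.0381) remained called. Over the 8 fits that left out 1 rat, however, Nr1d1 was called in 2 (adjusted p up to 0.0971), Tef in 3 (up to 0.0849) and the dimmest Nr1d2 probeset in 3 (up to 0.0686). The count was 3 without 18-h rat 1 or without 18-h rat 3, and the brighter 2 probesets of Nr1d2 and Npas2 were called in all 8. In this comparison 3 of 5 neutrophil markers rose, with a summed signal of 5290 to 14600 at 2 h and 19400 to 37700 at 18 h, and 1 of 3 macrophage markers (Cd68, Cd163, Mrc1) rose, with 4030 to 5570 and 7130 to 8830. Their part in the result was not tested.

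**Figure D2:**
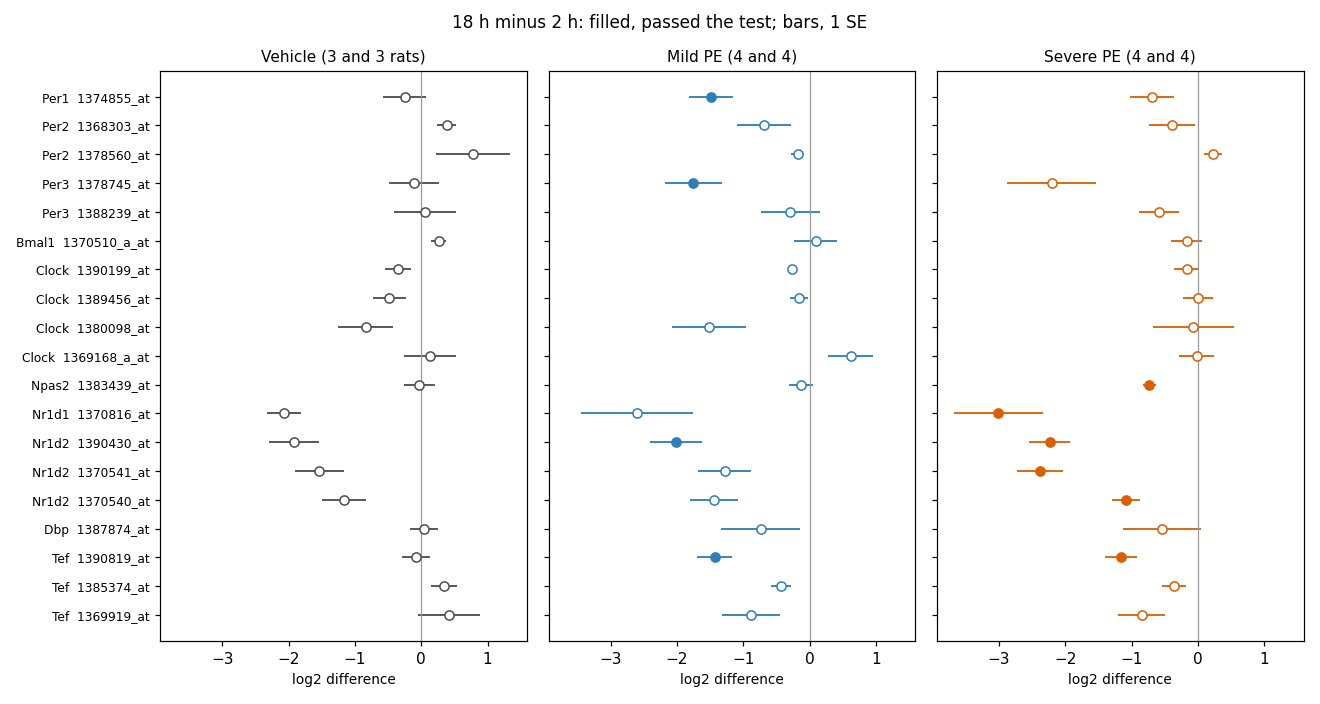
Difference between the harvests (18 h minus 2 h, log2) of the clock probesets in Vehicle, Mild PE and Severe PE rats, with bars of 1 SE and filled points for called probesets. The 3 Nr1d2 probesets and Nr1d1 are below 0 at all treatments, between −1.08 and −3.01, and the Bmal1 differences lie between −0.17 and 0.26.

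The 3 time comparisons share no arrays. In the 2-way model of all 22 arrays 8 of the 19 probesets had a time effect, against 17.6% of all probesets. Averaged over the 3 treatments, the difference of 18 h minus 2 h was −2.56 for Nr1d1 (SE 0.42, adjusted p = 0.000301). The averages were −2.05 (SE 0.22, adjusted p = 7.69e-06), −1.73 and −1.22 for the Nr1d2 probesets. They were −1.35 for Per3 (SE 0.32), −0.89 for Tef (SE 0.15), −0.81 for Per1 (SE 0.2) and −0.3 for Npas2 (SE 0.1). In Vehicle rats alone these genes differed by −0.11, −0.08, −0.25 and −0.03, in the same order, so their averages came mostly from the PE groups. Of the 11 18-h rats, 10 lay below all 11 2-h rats for Nr1d2 and 9 for Nr1d1. The exceptions were 18-h Vehicle rats. Of the 8 calls, 7 stood in each of the 22 fits that left out 1 rat, and Npas2 stood in 8. For Bmal1 the average was 0.06 (SE 0.15) and for Dbp −0.41 (SE 0.33), with adjusted p of 0.828 and 0.415. Both turned direction without rats 4 within a PE comparison. Bmal1 went from 0.09 to −0.22 between the Mild PE harvests, and Dbp from −0.54 to 0.05 between the Severe PE harvests. Npas2 was called for time at a 1.23-fold difference, since its 6 group means spanned 0.73.

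At 2 h after PE no clock probeset was called, and Per2 was the member with the clearest separation from Vehicle. The 2-h Vehicle rats had Per2 at 7.97, 8.16 and 7.77, the Mild PE rats at 8.93, 9.2, 8.94 and 9.77, and the Severe PE rats at 8.52, 8.95, 8.75 and 9.65. All 8 PE rats were above all 3 Vehicle rats. The difference was 1.24 in Mild PE (SE 0.24, 2.37-fold, limma adjusted p = 0.126) and 1 in Severe PE (SE 0.28, adjusted p = 0.46), and 1.06 and 0.77 without rats 4. Both doses were set against the same Vehicle arrays. The other Per2 probeset was near the floor, between 4 and 4.55 in the 2-h rats. Limma called 0 of 19 in Mild PE (3 at an unadjusted p under 0.05) and 0 of 19 in Severe PE (2 at an unadjusted p under 0.05), the methods' t-test called 0 in both, and 0.332% and 0.0226% of all probesets were called. The median differences of the 19 were −0.19 and −0.056, beside 0 over all probesets.

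Per1 was also higher after Severe PE at 2 h, with 9.52, 9.61, 9.75 and 9.76 against 9.07, 9.34 and 8.73 in Vehicle. The groups did not overlap (difference 0.61, SE 0.16, adjusted p = 0.385). In Mild PE it overlapped with Vehicle (0.16, SE 0.24, and −0.01 without rat 4). Of the 19 probesets 2 did not overlap and were higher in each dose, against 6.58% of all probesets in Mild PE and 3.77% in Severe PE. Besides Per2 and, in Severe PE, Per1, this was Tef in Mild PE (0.56, SE 0.21, adjusted p = 0.349). The brightest Clock probeset was the 1 of 19 that did not overlap and was lower, in Mild PE (−0.29, SE 0.16, adjusted p = 0.495), against 5.79% of all probesets. Nr1d1 ran from 8.02 to 12.03 in the 2-h Mild PE rats and from 8.16 to 11.36 in the Severe PE rats, around the Vehicle values of 10.17 to 10.5. Apart from rats 4 all 6 PE rats lay below the 3 Vehicle rats, and the differences without rats 4 were −1.39 (SE 0.49, adjusted p = 0.419) and −1.51 (SE 0.33, adjusted p = 0.404), against −0.61 and −0.87 with them. Rats 4 were singled out after their values were seen. Leaving out their high Nr1d1 values lowers these means by construction, so the separation without them is not evidence of a fall. The 2-h differences of Bmal1 were −0.19 (SE 0.35) and −0.06 (SE 0.23) with rats 4, and turned to 0.12 and 0.13 without them. Those of Per3 were 0.65 (SE 0.55) and 0.05 (SE 0.6), and 0.24 and −0.38 without them.

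At 18 h after Severe PE, Nr1d1 and Tef fell relative to Vehicle. They were the 2 of 19 probesets that fell, and none rose, where 3.91% of all probesets fell and 3.21% rose. Nr1d1 was at 8.27, 7.76 and 8.6 in Vehicle and at 5.82, 6.6, 6.61 and 6.58 in Severe PE. Every Severe PE rat lay below the lowest Vehicle rat, and the fall was 1.81 (SE 0.29, 3.5-fold, limma adjusted p = 0.0218). Tef was at 9.98, 10.07 and 9.67 in Vehicle and at 8.92, 8.82, 8.52 and 9.07 in Severe PE. The groups were separate and the fall was 1.08 (SE 0.16, 2.11-fold, adjusted p = 0.0196). The dimmer Tef probesets had differences of −0.44 (SE 0.21) and −0.72 (SE 0.47) with overlap. In the fit on all 22 arrays Tef stayed called (adjusted p = 0.00846), Nr1d1 did not (adjusted p = 0.111), and Per3, Npas2 and 1 of the Nr1d2 probesets were added, which made 4, against 12.4% of all probesets. The count of 2 became 0 without 18-h Vehicle rat 1 or without Severe PE rat 2, and 1 without Vehicle rat 3. Over the 7 fits that left out 1 rat, Nr1d1 was called in 3 (adjusted p up to 0.0633) and Tef in 4 (up to 0.0585).

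Further members were lower in all 18-h Severe PE rats than in all 18-h Vehicle rats. Together 7 of the 19 probesets did not overlap and were lower, against 12% of all probesets, and none was higher, against 11.2%. Per3 was at 7.21, 6.27 and 6.83 in Vehicle and at 4, 4.13, 6.21 and 4.61 in Severe PE, a difference of −2.03 (SE 0.6, adjusted p = 0.0961). Npas2 was at 9.87, 9.15 and 9.84 in Vehicle and at 8.9, 9.04, 8.71 and 9.03 in Severe PE, a difference of −0.7 (SE 0.2, adjusted p = 0.0959). The separation was narrow in both, since 1 Vehicle rat lay close to the highest Severe PE rat. Bmal1 was at 9.04, 9.25 and 9.19 in Vehicle and at 8.77, 8.72, 8.25 and 8.94 in Severe PE, a difference of −0.49 (SE 0.17, adjusted p = 0.15). Nr1d2 differed by −1.06 (SE 0.24, adjusted p = 0.0513), just beyond the threshold. Per1, Per2, Dbp and the brightest Clock probeset overlapped, with differences of 0.17, 0.22, −0.39 and 0.01. The median of the 19 was −0.469, beside 0 over all probesets. In the same comparison 2 of 6 lymphocyte markers (Cd3e, Cd3d, Cd3g, Cd2, Cd79b, Ms4a1) fell, with a summed signal of 5050 to 6070 in Vehicle and 2410 to 3680 in Severe PE. Of the endothelial markers 1 of 3 fell, with 20100 to 22100 and 12500 to 14600, and of the macrophage markers 1 of 3 rose. Their part in the result was not tested.

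At 18 h after Mild PE limma called 0 of the 19 probesets, with 5 at an unadjusted p under 0.05, the methods' t-test called 0, and 1.03% of all probesets were called. Nr1d1 was at 7.45, 7.48, 6.83 and 6.51 in these rats, all below the 18-h Vehicle rats (difference −1.14, SE 0.32, adjusted p = 0.142). Per3 was at 5.89, 5.56, 5.71 and 5.95, also below all Vehicle rats (−0.99, SE 0.24, adjusted p = 0.104). Per1 was at 7.99, 8.39, 7.53 and 6.97, against 9.32, 8.28 and 8.8 in Vehicle. It differed by −1.08 (SE 0.41, adjusted p = 0.24) and overlapped at 1 rat of each group. The highest Vehicle value (9.32) and the lowest Mild PE value (6.97) of Per1 came from arrays of low 5′ signal. Without the arrays of low 5′ signal its difference was −0.57 (adjusted p = 0.5). In all, 4 of the 19 did not overlap and were lower, against 8.81% of all probesets. The median difference of the 19 was −0.462, beside 0 over all probesets. No lymphocyte, endothelial or macrophage marker was called in this comparison. Their summed signals were 2860 to 4510, 14400 to 18700 and 5870 to 8920 in Mild PE. In Vehicle they were 5050 to 6070, 20100 to 22100 and 4300 to 5160. The part of these cells in the differences was not tested.

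No clock probeset was called between the doses. Limma called 0 of 19 between Severe PE and Mild PE at 2 h (2 at an unadjusted p under 0.05, 0.438% of all probesets called) and 0 of 19 at 18 h (3 at an unadjusted p under 0.05, 0% of all probesets called), and the methods' t-test called 0 at both. The largest difference at 18 h was in Per1, at 1.25 (SE 0.43, adjusted p = 0.271), with 9.18, 9.02, 8.02 and 9.67 in Severe PE. Its 18-h Severe PE and Mild PE values overlapped. An Nr1d2 probeset differed by −0.9 (SE 0.26, adjusted p = 0.211) and was the 1 of 19 that did not overlap at 18 h and was lower, against 4.19% of all probesets. Nr1d1 differed by −0.67 (SE 0.29, adjusted p = 0.369). In the 2-way model 0 of 19 had a dose effect (8 at an unadjusted p under 0.05, 9.93% of all probesets called) and 0 an interaction (3 at an unadjusted p under 0.05, 3.62% called).

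The PE effect at 18 h was also compared with that at 2 h within the model of all 22 arrays. Limma called 0 of 19 for Mild PE (4 at an unadjusted p under 0.05, 0.744% of all probesets called) and 0 of 19 for Severe PE (4 at an unadjusted p under 0.05, 5.73% called). Tef came nearest, with an effect lower at 18 h by a log2 difference of −1.35 (SE 0.37, adjusted p = 0.0943) in Mild PE and −1.08 (SE 0.37, adjusted p = 0.0934) in Severe PE. Per3 differed by −2.08 (SE 0.81, adjusted p = 0.142) in Severe PE. Nr1d1 differed by −0.94 (SE 1.05, adjusted p = 0.691) in Severe PE, so that its call at 18 h and not at 2 h was not shown to be a difference between the times.

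Rats 4 of both PE groups at 2 h, singled out after their values were seen, had levels of several clock genes far from those of their group-mates. Nr1d1 was 3.14 above the mean of the group-mates in the Mild PE rat (8.81-fold) and 2.59 above it in the Severe PE rat (6.02-fold). Ranked by this deviation over 31042 probesets, Nr1d1 was the probeset of rank 3 and rank 7. Dbp, the classical D-box activator, was at 9.83 and 9.39 in these rats and between 6.67 and 7.68 in the other 20. That was 2.41 and 2.38 above the group-mates, rank 5 and rank 10. Per3 was 1.62 and 1.74 above them, rank 49 and rank 52. Nr1d1, Dbp and Per3 had their highest levels of the 22 arrays in these animals, as did Tef (10.95 and 10.62) and Per2 (9.77 and 9.65).

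The same animals had low values of Bmal1 and Cry1. Bmal1 was at 7.78 in the Mild PE rat, its lowest value, and at 8.29 in the Severe PE rat, where only 18-h Severe PE rat 3 (8.25) was lower among the remaining arrays. Cry1, a repressor that works with the Per proteins, was at 9.25 and 9.36, its lowest values. Nr1d2 (9.82 and 9.36), the brightest Clock probeset (9.48 and 9.34) and Npas2 in the Severe PE rat (9.72) were within the range of the other 2-h rats. Against the group-mates alone, however, Nr1d2 was 1.02 and 0.52 higher, rank 351 and rank 3032. Its other probesets were 0.33 to 1.27 higher in these animals. Npas2 in the Mild PE rat was at 8.95, the lowest of the 2-h rats and 0.45 below its group-mates. The root mean square deviation over all probesets was 0.384 and 0.45 in these animals and 0.358 to 0.614 over the 22 rats. The labels give no difference between them and their group-mates. With these animals the levels of Dbp in 2-h Mild PE and Severe PE differed from Vehicle by 0.61 (SE 0.68) and 0.19 (SE 0.68). Without them the differences were 0.01 (SE 0.17) and −0.4 (SE 0.21). Other rats deviated in single clock genes too. In 2-h Mild PE rat 2 Nr1d1 was 2.21 below the group-mates, rat 4 included, the deviation of rank 9 from the lowest. In 18-h Severe PE rat 3, 2 clock probesets were among the 100 largest deviations each way, against 4 and 3 in rats 4.

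**Figure D3:**
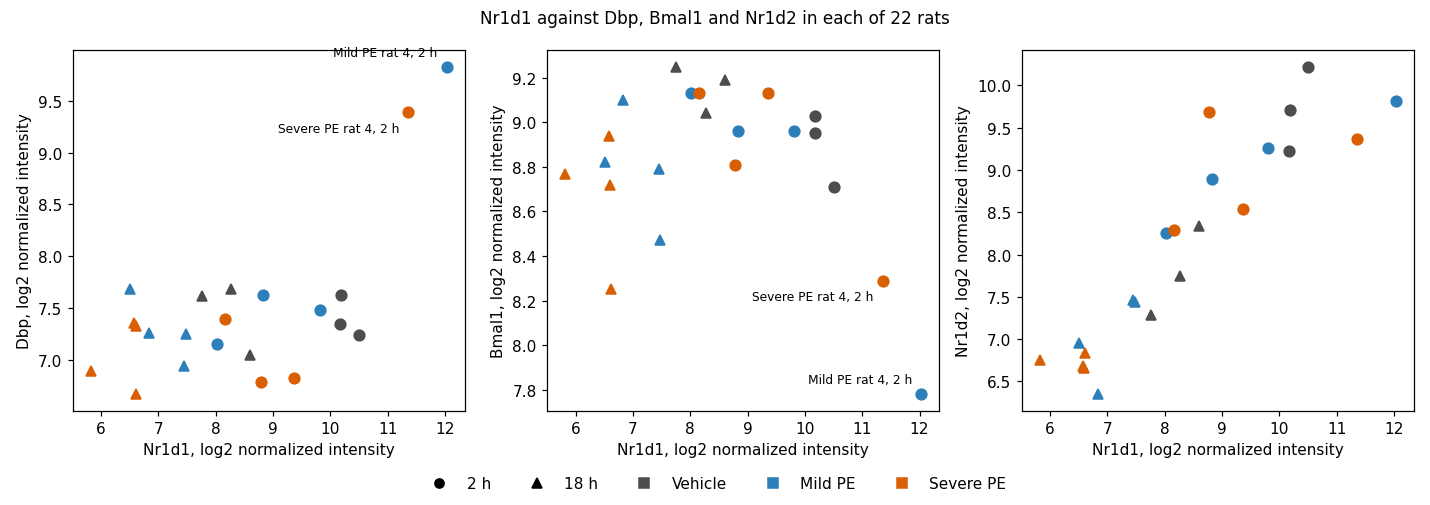
Level of Nr1d1 (log2 signal, horizontal axis) against Dbp, Bmal1 and Nr1d2 (log2 signal, vertical axes, 1 panel each), with 1 point per rat, circles for 2 h, triangles for 18 h and colours for the treatments. The labelled rats 4, at 12.03 and 11.36 for Nr1d1, have the highest Dbp (9.83 and 9.39), low Bmal1 (7.78 and 8.29) and Nr1d2 values (9.82 and 9.36) among those of the other 2-h rats.

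The members with several probesets agreed in part. The 3 Nr1d2 probesets had the same direction in each time comparison, and the dimmest reached only 4 to 5.16 at 18 h. The Tef time effect rested on the brightest probeset, since the 2-way averages of the other 2 were −0.15 (SE 0.1) and −0.44 (SE 0.25). The second probesets of Per2 and Per3 were near the floor, with medians at 18 h of 4.21 and 4. Of Clock, the partner of Bmal1, 4 probesets were measured and none was called in any comparison. Their 2-way time averages were −0.26, −0.21, −0.81 and 0.24, with adjusted p from 0.0537 to 0.43.

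Other genes of the clock were read from a fixed list, of which 14 of 18 were measured. None was called between the Vehicle harvests, where 0.0161% of all probesets were called, with 3 at an unadjusted p under 0.05. The median difference of the 14 was 0.124. In 4 of the 14 (Cry1, Nfil3, Btrc and Timeless) the Vehicle groups did not overlap and were higher at 18 h, against 12.4% of all probesets. In none did they not overlap and lie lower, against 9.93%. Between the Mild PE harvests 2 of 14 fell, Hlf, the third PAR bZIP factor, by 1.17 (SE 0.21, limma adjusted p = 0.018) and the repressor Cry2 by 0.72 (SE 0.14, adjusted p = 0.0223), where 2.96% of all probesets fell. Without 2-h rat 4 Cry2 was not called (adjusted p = 0.0624). Between the Severe PE harvests Hlf was the 1 of 14 that fell, by 1.07 (SE 0.22, adjusted p = 0.0331), where 2.99% of all probesets fell, and without 2-h rat 4 its adjusted p was 0.0817. Hlf lay between 9.05 and 9.33 in 2-h Vehicle and between 8.89 and 9.19 in 18-h Vehicle, and between 7.34 and 8.65 in the 8 PE rats at 18 h.

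At 2 h none of the 14 was called in Mild PE (4 at an unadjusted p under 0.05) or in Severe PE (3 at an unadjusted p under 0.05), where 0.332% and 0.0226% of all probesets were called. At 18 h 1 of 14 rose in Mild PE and 2 of 14 in Severe PE, all of them E-box repressors of the Bhlhe pair, and none fell, where 1.03% of all probesets were called in Mild PE and 3.21% rose in Severe PE. Bhlhe40 was at 7.42, 6.93 and 7.3 in Vehicle, at 9.44, 9.66, 8.67 and 8.93 in Mild PE and at 8.51, 9.91, 8.6 and 8.78 in Severe PE. It rose by 1.96 (SE 0.28, adjusted p = 0.0474) and 1.73 (SE 0.38, adjusted p = 0.045), against the same Vehicle rats. At 2 h, where it was not called, Bhlhe40 was also higher in all PE rats than in all Vehicle rats. It lay between 7.19 and 7.93 in 2-h Vehicle, 8.73 and 9.25 in Mild PE, and 8.6 and 9.06 in Severe PE. Bhlhe41 rose in Severe PE by 1.01 (SE 0.16, adjusted p = 0.0206) and differed in Mild PE by 0.26 (SE 0.26). Nfil3, which competes with Dbp and Tef for D-boxes, was higher in all 2-h Severe PE rats (9.59 to 10.59) than in all 2-h Vehicle rats (8.44 to 8.74), a difference of 1.56 (SE 0.25, adjusted p = 0.189, and 0.00112 in the fit on all 22 arrays). Cry1 and Rora, which activates through the ROR element, were not called in a pairwise comparison. Their 2-way time averages were 0.58 (SE 0.19, adjusted p = 0.0323) and −0.78 (SE 0.25, adjusted p = 0.0299), and both were called for time in that model, as were Nfil3 and Hlf. Without rats 4 of the 2-h PE groups Cry1 (adjusted p = 0.0694), Rora (adjusted p = 0.0534) and Nfil3 (adjusted p = 0.0755) were not called for time, and Hlf was (adjusted p = 0.00109). Dose effects were called for Bhlhe40, Bhlhe41, Nfil3 and Hlf with and without these rats. An interaction was called for Cry2 (adjusted p = 0.0464) and not without them (adjusted p = 0.081).

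Genes whose levels ran most like Bmal1 and Dbp over the 22 arrays were found among 6044 genes, as a description. For Bmal1 they were Bicral (Pearson r 0.612), Dlgap5 (0.605), Dnaja4 (0.57), Dtwd1 (0.569) and Rtel1 (0.569). For Dbp they were Spata24 (0.624), Rasd2 (0.619), Slc25a33 (0.612), Iffo1 (0.608) and Garnl3 (0.572). Without rats 4 of the 2-h PE groups r for Bicral was 0.789 and for Spata24 0.257. The arrays share groups and harvest times, so these values are not independent of either.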

How the data were processed

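Right lung of 22 rats was hybridised to Affymetrix Rat Genome 230 2.0 arrays. The deposited values are linear probeset intensities that the authors scaled to a trimmed mean of 500.1 to 500.2 per array, while their methods describe GC-RMA log2 values. The summary method of the deposited values is not given in the sources used here. Of 31099 probesets, 57 array controls were left out. Signals under 16 (13.6% to 17.3% per array) were set to 16, taken to log2 and quantile normalized. Of the probesets 20826 had 1 gene symbol, 436 several and 9780 none.

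Pairs of groups were compared with limma 3.58.1 in R 4.3.3 on the arrays of those groups, and the 2-way model and effect differences on all 22. The rule named every probeset of the members, up to 4 genes of each fixed list per comparison with the smallest adjusted p, and 9 further clock genes where measured. The members and lists were chosen with earlier results of these data known. Rats are taken as replicates because the labels list 1 sample each, and their number limits the precision. The scripts were tested on simulated data. Alternatives were median centring, a floor of 64, the dimmer probesets (mean log2 under 7.04) left out, removal of the 4 arrays low at the 5′ end, a block for the replicate number, a fit on all 22 arrays, the methods' t-test and each rat left out. Leaving out both rats 4 of the 2-h PE groups was added after seeing the data. Figures were drawn with matplotlib 3.10.9.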

Additional observations from a re-analysis of the deposited data

Results flagged for a closer look

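In groups of 4 rats, 6 of 74 member and group combinations had a rat whose gap to its nearest group-mate was a larger share of the range of the group than Dixon's critical value for 4 samples, where chance flags about 1 in 20. In the 2-h Mild PE group rat 4 was the highest for Per1 (share 0.899) and for the brightest Tef probeset (0.941) and the lowest for Bmal1 (0.869). In the 18-h Severe PE group rat 1 was the lowest for Nr1d1 (0.967) and the highest for a dimmer Tef probeset (0.908). In the 18-h Mild PE group rat 2 was the highest for the dim Per3 probeset (1), with the other 3 rats at the floor.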

How the results depend on the processing

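No called pairwise difference of a clock probeset changed sign under an alternative. That of the dimmest Nr1d2 probeset between the Severe PE harvests, however, ranged from −1.22 to 0. The time effects of the 2-way model were recorded as a range of group means, which has no sign, so they could not be checked in this way. Some differences that were not called did change sign. Without both rats 4 of the 2-h PE groups Bmal1 turned from −0.19 to 0.12 (Mild PE) and from −0.06 to 0.13 (Severe PE) against Vehicle at 2 h. For the 19 clock probesets, the number called between the Vehicle harvests was 0, and 1 in the fit on all 22 arrays. Between the Mild PE harvests it was 4, and 2 without the 4 arrays low at the 5′ end, 2 without both rats 4 of the 2-h PE groups, 2 by the methods' t-test and 0 to 4 with 1 rat left out. Between the Severe PE harvests it was 6, and 3 to 5 with 1 rat left out. For Severe PE against Vehicle at 18 h it was 2, and 5 without the dimmer probesets, 0 without the 4 arrays low at the 5′ end, 4 in the fit on all 22 arrays and 0 to 3 with 1 rat left out. With the dimmer probesets left out, fewer probesets were tested (15521), and the count became 1 for Mild PE against Vehicle at 2 h and at 18 h, 3 for the dose effect, and 1 each for the interaction and for the difference of the Mild PE and of the Severe PE effect between times, all 0 otherwise. The dose effect was called for 2 without both rats 4. With 1 rat left out the dose effect, the interaction and both effect differences gave 0 to 1, and the time effect 7 to 9. With the replicate number as a block the counts between the Mild PE harvests, between the Severe PE harvests and for Severe PE against Vehicle at 18 h were 0, and over all probesets also 0. Over all probesets the residuals of same-numbered rats showed little correlation (−0.273 to 0.123, median −0.021, over 0.1 in 1 of 31 pairs). That measure cannot show a link limited to few genes, so whether the numbers pair the rats stays undecided. Since the block left no call over all probesets, its counts for the clock probesets say nothing of weaker effects. Over all probesets the calls with 1 rat left out were 988 to 1828 (1691 with all) between the Mild PE harvests, 1070 to 1989 (1956) between the Severe PE harvests, 4 to 491 (321) for Mild PE and 976 to 1564 (2212) for Severe PE against Vehicle at 18 h, and in the fit on all 22 arrays 1446, 3021, 1589 and 3838. The causes of these changes were not tested. The second probesets of Per2 and Per3 lay near the floor, which limits the fall they can show.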

Other observations

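Genes that the clock drives in other tissues were read from a list with 11 of 12 measured. None was called between the Vehicle harvests (limma, 5 at an unadjusted p under 0.05), where 0.0161% of all probesets were called. In 3 of the 11 the Vehicle groups did not overlap and were lower at 18 h, against 9.93% of all probesets. In 1 they did not overlap and were higher, against 12.4%. Klf9, a repressor of transcription, fell between the Mild PE harvests by 1.66 (SE 0.13, limma adjusted p = 0.00267) and was lower in Mild PE than in Vehicle at 18 h, where it fell by 1.11 (SE 0.11, adjusted p = 0.0286). Alas1, the first enzyme of heme synthesis, fell between the Mild PE harvests by 0.74 (SE 0.14, adjusted p = 0.02) and between the Severe PE harvests by 0.67 (SE 0.13, adjusted p = 0.026, and 0.0664 without 2-h rat 4). In Vehicle rats, where it was not called, Klf9 was at 11.37 to 11.93 at 2 h and at 10.82 to 11.12 at 18 h. Alas1 was at 12.09 to 12.25 and at 11.59 to 11.92, also without a call. Tspan4 rose in Severe PE against Vehicle at 18 h by 0.82 (SE 0.17, adjusted p = 0.0417). Over all probesets 2.96% fell between the Mild PE harvests, 2.99% between the Severe PE harvests, and 3.21% rose in Severe PE against Vehicle at 18 h. In the 2-way model Nampt (1.26-fold between times), Alas1, Tspan4, Pdk4 and Klf9 had a time effect, against 17.6% of all probesets. Klf9 also had a dose effect, against 9.93%.

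Genes that glucocorticoids induce, of which 8 of 9 were measured, moved in both directions. Between the Mild PE harvests 3 of 8 rose and 2 fell, where 2.48% of all probesets rose and 2.96% fell. Between the Severe PE harvests 2 of 8 rose and none fell, where 3.31% rose and 2.99% fell. In Severe PE against Vehicle at 18 h 2 of 8 rose and none fell, where 3.21% rose and 3.91% fell. Fkbp5 fell between the Mild PE harvests by 1.28 (SE 0.18, adjusted p = 0.00968) and Tsc22d3, also called Gilz, by 1.54 (SE 0.26, adjusted p = 0.0151). Cebpd rose by 0.62 in that comparison (SE 0.15, adjusted p = 0.048, and 0.096 without 2-h rat 4). Mt2A, a metallothionein, rose between the Mild PE harvests by 2.41 (SE 0.48, adjusted p = 0.026, and 0.0686 without 2-h rat 4), between the Severe PE harvests by 3.47 (SE 0.3, adjusted p = 0.00307) and in Severe PE against Vehicle at 18 h by 4.41 (SE 0.24, adjusted p = 0.00336). Angptl4, an inhibitor of lipoprotein lipase, rose in the same comparisons by 1.46 (SE 0.24), 2.18 (SE 0.12) and 2.2 (SE 0.37). None of the 8 was called between the Vehicle harvests (1 at an unadjusted p under 0.05), where 0.0161% of all probesets were called. Fkbp5 was nevertheless lower in all 18-h Vehicle rats (8.76 to 9.37) than in all 2-h Vehicle rats (10.22 to 10.28). It was the 1 of 8 that did not overlap and was lower, against 9.93% of all probesets.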
